A study of Homo sapiens with 21 samples.

Results

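RNA levels of 10 genes for smooth muscle actins and their contractile partners were followed in PC-9 cells, an EGFR-mutant NSCLC line of lung adenocarcinoma origin. The genes were taken by symbol from the expression tables as ACTG2, ACTA2, TAGLN, TPM1, TPM2, TPM4, CNN1, CNN2, MYL9 and CALD1, and all 10 were found among the 20111 genes listed. A pair of populations had been drawn from PC-9 by 6 rounds of sorting for membrane EGFR and were called EGFR-low and EGFR-high. Both are sorted populations and not clones of a single cell. Every group carries the EGFR deletion of the parental line. In the untreated experiment, parental, EGFR-low and EGFR-high cells were collected 24 h after seeding. In the vorinostat experiment, EGFR-low and EGFR-high cells received DMSO or 1 µM vorinostat (SAHA, an inhibitor of histone deacetylases) for 72 h. Each of the 7 groups held 3 libraries of polyadenylated RNA, 21 in all.

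Contraction rests on actin filaments that slide along myosin. Smooth muscle adds its own actins, encoded by ACTA2 and ACTG2, and a set of proteins that sit on the filament. Tropomyosins lie along its groove, calponins and caldesmon restrain myosin on it, transgelin bundles filaments, and a phosphorylated regulatory light chain switches myosin on. Many of these genes hold CArG boxes, DNA elements bound by serum response factor (SRF) with its actin-sensing cofactors of the MRTF family. The same genes are commonly used as markers of myofibroblasts and of mesenchymal change in carcinoma cells, although several members of the families are made by most cells.

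Values were FPKM, fragment numbers corrected for how long a transcript is and how much of a library was mapped, so that levels can be compared between genes. Tests were run with limma on log2(FPKM + 1) over the genes that reached 1 FPKM in 3 or more of an experiment's libraries, and a gene was called at a Benjamini-Hochberg adjusted p under 0.05. For weakly expressed genes the added 1 shrinks the log2 fold change below the ratio of the levels. With 3 libraries on each side, the smallest p of an exact permutation test (two-sided) is 0.1, the value found wherever 2 groups of 3 did not overlap. The experiments were tested separately.

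EGFR followed the sort, at 26.5 to 60.6 FPKM in untreated EGFR-low libraries against 161 to 269 in EGFR-high, and at 16.1 to 43.3 against 83.3 to 207 in the vorinostat experiment. All 8 epithelial markers examined (EPCAM, KRT7, KRT8, KRT18, KRT19, CDH1, CLDN4 and ELF3) were above 1 FPKM in every library. The 6 markers of mature smooth muscle cells (MYH11, DES, LMOD1, MYOCD, SYNPO2 and CNN1) were under 1 FPKM in every library, and their summed level stayed between 0.0113 and 0.564 FPKM per library. The 10 markers of fibroblasts and pericytes summed to 1.62 to 6.92 FPKM, mostly COL1A1 and RGS5. In the vorinostat experiment 2 libraries stood between the populations on the first principal component, which held 82.5% of the variance. EGFR-low DMSO replicate 1 lay at 25.6, with the other EGFR-low libraries at 61.6 to 66.7, and EGFR-high DMSO replicate 3 lay at -26.3, with the other EGFR-high libraries at -59.4 to -67.2. Fold changes of the members called between the populations under DMSO are given with and without these 2.

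Members of the list spanned a wide range of expression. In parental cells TPM4 averaged 302 ± 110 FPKM (SD, n = 3) and TPM1 240 ± 82.1, followed by CALD1 at 31.8 ± 11.3 and CNN2 at 30.9 ± 11.2. TPM2 averaged 3.75 ± 2.03 FPKM and TAGLN 0.896 ± 0.523. MYL9, ACTA2 and ACTG2 averaged 0.163, 0.149 and 0.107 FPKM, and CNN1 was listed at 0 in all 3 libraries. The libraries of TPM4 and TPM1 overlapped in this order, as did those of CALD1 and CNN2 and those of MYL9, ACTA2 and ACTG2. These ranges do not compare genes within a library. TPM4 was above TPM1 in each parental library, at 34.8, 34.3 and 36.4% of the summed FPKM of TPM1 to TPM4 against 26.8, 28.8 and 28.7%. The order of the other overlapping neighbours was not tested. The genes most restricted to smooth muscle were thus the lowest in the parental line, whereas the widely expressed tropomyosins were the highest.

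**Figure D1:**
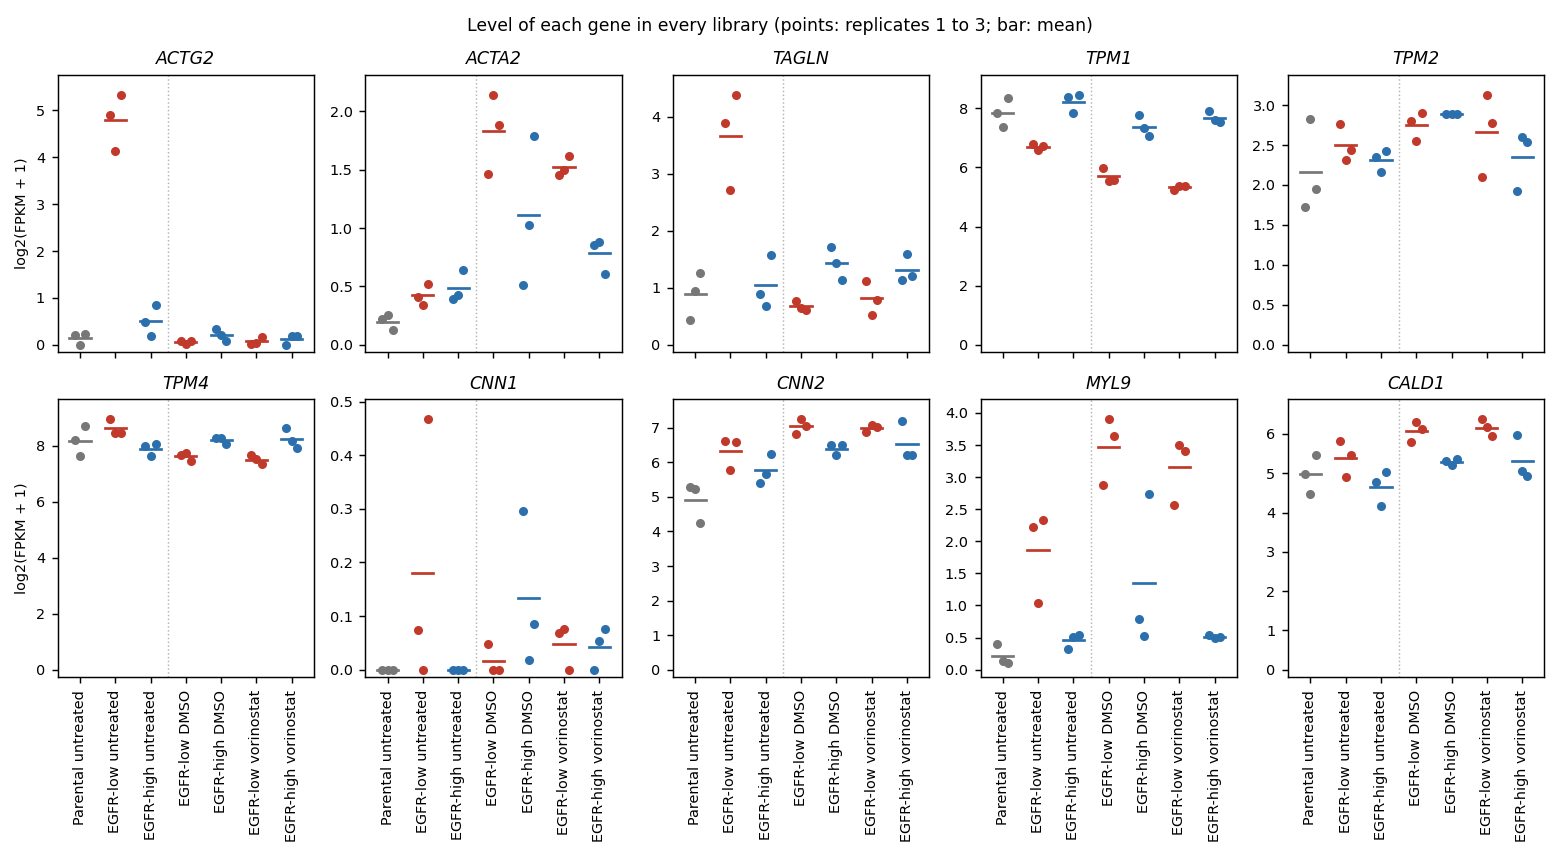
Level of each of the 10 genes as log2(FPKM + 1) on the y axis for the 7 groups on the x axis, with points for replicates 1 to 3 and a bar for their mean (grey, parental; red, EGFR-low; blue, EGFR-high; the dotted line separates the experiments, and the y axes differ). ACTG2 and TAGLN are high only in the 3 untreated EGFR-low libraries, while MYL9 separates the populations upward and TPM1 downward for EGFR-low libraries of both experiments.

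Untreated EGFR-low cells were compared with EGFR-high cells to ask which genes separate the sorted populations. ACTG2, TAGLN and MYL9 were higher in EGFR-low cells and TPM1 was lower. These were 4 called genes of the 8 that could be tested, while 3.81% of all 11305 genes tested were called (1.62% higher and 2.19% lower). ACTG2 and MYL9 reached 1 FPKM in the EGFR-low libraries only. TAGLN reached it in parental replicate 3 (1.40 FPKM) and EGFR-high replicate 3 (1.96 FPKM) as well, too few libraries to pass the filter without EGFR-low. All 3 genes thus entered the test through the group in which they are high, for which reason the count of called members is no support. ACTA2 and CNN1 were too low to be tested.

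ACTG2 encodes the gamma actin of enteric smooth muscle. In untreated EGFR-low cells it was at 28.9, 16.6 and 39.5 FPKM in replicates 1, 2 and 3. In EGFR-high cells it was at 0.394, 0.131 and 0.789 FPKM, and in parental cells at 0.148, 0 and 0.173 FPKM. No EGFR-low library came near any other library, and the mean of EGFR-low cells (28.3 ± 11.5 FPKM, SD, n = 3) was 64.7 times the EGFR-high mean. This ratio rests on a low denominator and ranged from 47.9 to 108 when libraries were left out in turn, EGFR-high replicates 2 and 3 giving these limits. On the log2 scale the change was 4.29 ± 0.30 (SE, adjusted p = 2.04e-05 by limma), and ACTG2 stayed called without any of the 6 libraries in turn. Against parental cells it was 4.65 ± 0.30 (adjusted p = 3e-05). ACTG2 nevertheless supplied little of the actin RNA of EGFR-low cells. It made up 0.824 ± 0.15% of the summed FPKM of the 6 actin genes there, next to 72.5% for ACTB and 26.6% for ACTG1, the cytoplasmic actins, and 0.0117 ± 0.00641% in EGFR-high cells. Actin genes share long coding stretches, so that the assignment of fragments between them by the authors' counting is uncertain.

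CArG boxes in the promoters of the listed genes are shown because they mark which of them carry this element close to their start. RefSeq windows of GRCh38.p14, read over the 250 bases before the annotated start, were found for 8 of the 10 genes. TAGLN and MYL9 had no window and were not searched. The box was searched as CC, 6 bases of A or T, and GG, a pattern that reads the same on both strands. ACTG2 held 2 boxes, and CNN2 and TPM4 held 1 each, TPM4 in 1 of its 3 windows. No box was found in the windows of ACTA2, TPM1, TPM2, CNN1 and CALD1, although ACTA2 and CALD1 held a stretch with 1 letter off the pattern, 121 and 244 bases before the start, as did 16.8% of all windows with at most 1 letter off. At least 1 box was in 1.16% of all 35116 windows and 2 or more in 0.0313%. The stretches around the boxes are given 5′ to 3′ on the plus strand, with the boxes in capitals.
ACTG2, chr2:73892868-73892974: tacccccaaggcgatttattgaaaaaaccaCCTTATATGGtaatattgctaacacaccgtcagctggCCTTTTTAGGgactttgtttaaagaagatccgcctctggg
CNN2, chr19:1026489-1026558: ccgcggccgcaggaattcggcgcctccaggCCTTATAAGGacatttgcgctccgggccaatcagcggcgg
TPM4, chr19:16067335-16067404: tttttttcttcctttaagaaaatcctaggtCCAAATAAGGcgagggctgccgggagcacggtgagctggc
The boxes of ACTG2 begin 110 and 73 bases before the start, that of CNN2 begins 89 bases and that of TPM4 173 bases before it. A match describes the letters of the window and not the binding of a factor.

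TAGLN encodes transgelin (SM22), a small actin-bundling protein. Untreated EGFR-low libraries held 13.9, 5.59 and 19.97 FPKM, EGFR-high libraries 0.863, 0.600 and 1.96 FPKM, and parental libraries 0.355, 0.934 and 1.40 FPKM. The lowest EGFR-low library was above every other one, and EGFR-low replicate 2 was the lowest of its group for TAGLN, ACTG2 and MYL9 alike. The log2 fold change was 2.62 ± 0.41 against EGFR-high (adjusted p = 0.00470, limma) and 2.78 ± 0.41 against parental cells (adjusted p = 0.00603), and the call held without each library in turn. The paralog TAGLN2, which most cells express, supplied 96.0 ± 1.55% of the summed transgelin FPKM in untreated EGFR-low cells and 99.4 ± 0.371% in EGFR-high cells.

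MYL9 encodes the regulatory light chain of smooth muscle myosin, the target of myosin light chain kinase. It was at 3.65, 1.05 and 4.01 FPKM in EGFR-low libraries, at 0.244, 0.431 and 0.452 FPKM in EGFR-high and at 0.314, 0.0957 and 0.0801 FPKM in parental libraries. Although the groups did not overlap, EGFR-low replicate 2 was closer to the other populations than to the remaining EGFR-low libraries. The log2 fold change was 1.40 ± 0.30 against EGFR-high (adjusted p = 0.0233, limma) and 1.65 ± 0.30 against parental cells (adjusted p = 0.0191). The call against EGFR-high was kept only without EGFR-low replicate 2 (adjusted p = 0.000742) and was lost when any other library was left out, with an adjusted p of 0.0727 to 0.112. Against parental cells it was lost without EGFR-low replicates 1 or 3 or parental replicates 1 or 3 (adjusted p = 0.0637 to 0.0971).

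Tropomyosins moved unevenly. TPM1, which encodes the alpha chain, was at 111, 94.4 and 105 FPKM in untreated EGFR-low cells, at 333, 228 and 353 FPKM in EGFR-high cells and at 226, 166 and 328 FPKM in parental cells. All EGFR-low libraries lay below all others, and the log2 fold change against EGFR-high was -1.52 ± 0.30 (adjusted p = 0.0164, limma). This call was kept only without EGFR-high replicate 2 (adjusted p = 0.0251) and missed the threshold without any other library (adjusted p = 0.0504 to 0.0881). Against parental cells TPM1 differed by -1.15 ± 0.30 (adjusted p = 0.105), without passing the threshold, and did pass it without parental replicate 2 (adjusted p = 0.0425). TPM4, a short tropomyosin of non-muscle cells, was at 493, 352 and 352 FPKM in EGFR-low and at 254, 197 and 265 FPKM in EGFR-high cells. These groups did not overlap either, but the log2 fold change of 0.73 ± 0.32 had an adjusted p of 0.334. TPM2, which encodes the beta chain, ranged from 2.31 to 6.07 FPKM over the 9 libraries with overlap between all groups.

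The make-up of the tropomyosin RNA therefore differed more clearly than its amount. The summed FPKM of TPM1, TPM2, TPM3 and TPM4 averaged 746 in untreated EGFR-low, 803 in EGFR-high and 854 in parental cells. TPM1 held 14.1 ± 1.59% of it in EGFR-low, 37.7 ± 1.75% in EGFR-high and 28.1 ± 1.16% in parental cells (SD, n = 3). TPM4 held 53.5 ± 2.00%, 29.8 ± 1.13% and 35.2 ± 1.09%. The shares of neither gene overlapped between any of the 3 groups, while that of TPM3 was 31.9% in both sorted populations.

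**Figure D2:**
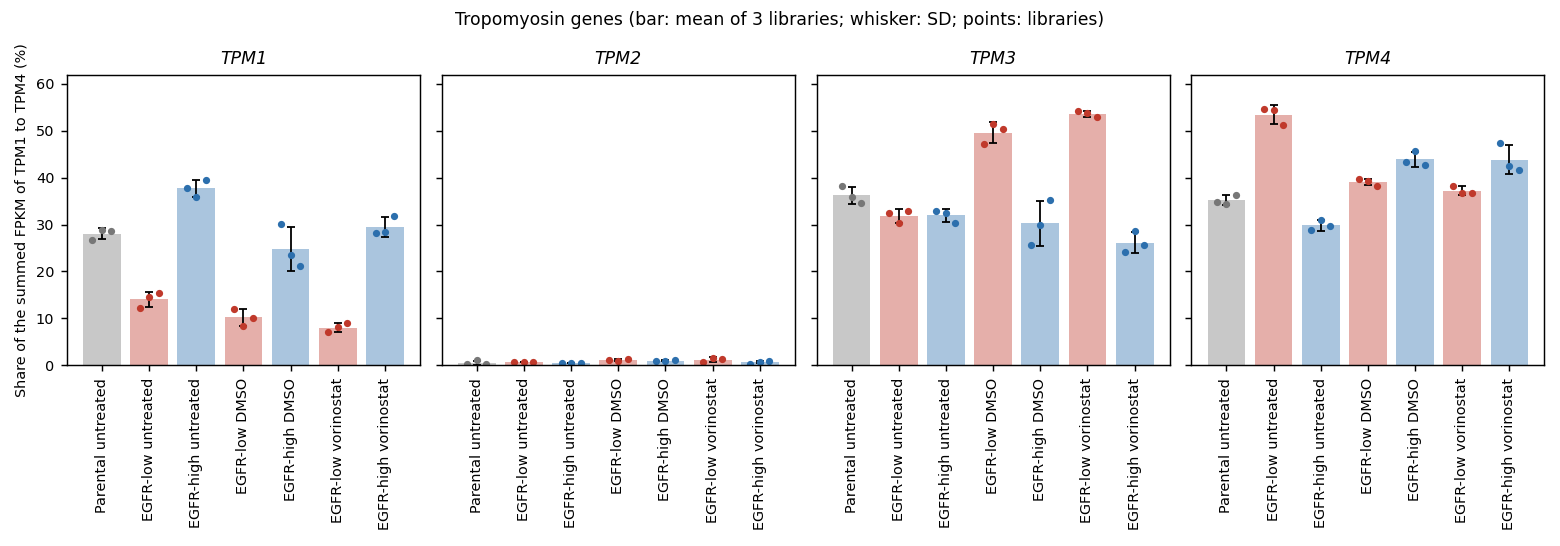
Share of each tropomyosin gene in the summed FPKM of TPM1 to TPM4 (y axis, %) for the 7 groups (x axis), with bars for the mean of 3 libraries, whiskers for the SD and points for libraries. EGFR-low cells have the lower share of TPM1 in both experiments, whereas their share of TPM4 is higher when untreated (53.5% against 29.8%) and lower under DMSO (39.1% against 44.0%).

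The calponins and caldesmon showed smaller differences in the untreated experiment. CNN2, the calponin of non-muscle cells, was at 98.2, 54.3 and 96.1 FPKM in EGFR-low, at 41.1, 50.1 and 74.3 FPKM in EGFR-high and at 38.1, 36.7 and 17.9 FPKM in parental cells. The sorted populations overlapped (log2 fold change 0.57 ± 0.36, adjusted p = 0.595, limma), and EGFR-low lay above parental cells in every library without passing the threshold (1.42 ± 0.36, adjusted p = 0.0967). CALD1, caldesmon, was at 55.7, 28.7 and 43.3 FPKM in EGFR-low and at 26.4, 17.0 and 31.5 FPKM in EGFR-high cells, with overlap. Its log2 fold change of 0.74 ± 0.35 had an adjusted p of 0.392, and of 0.0466 in a fit with the replicate number as a block, since the libraries of each replicate number deviated together here. CNN1, the calponin of smooth muscle, was listed at 0 in the 6 parental and EGFR-high libraries and at 0.0520, 0 and 0.382 FPKM in EGFR-low. ACTA2, the alpha actin of vascular smooth muscle, was at 0.267 to 0.433 FPKM in EGFR-low, 0.312 to 0.559 in EGFR-high and 0.0887 to 0.191 in parental libraries, without the difference seen for ACTG2.

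Of the 8 members tested against parental cells, 3 were higher in EGFR-low cells (ACTG2, TAGLN and MYL9) and none was lower, while 1.6% of all genes were called (0.831% higher and 0.77% lower). ACTG2, TAGLN and MYL9 again entered through the EGFR-low libraries, so that this count is no support either. Between EGFR-high and parental cells 0 members were called by limma, and 0.0708% of all genes were (0.0619% higher and 0.00885% lower). CNN2 was the 1 member with an unadjusted p under 0.05 there, with a log2 fold change of 0.85 ± 0.36 and an adjusted p of 0.507.

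In the vorinostat experiment the control cells asked the same question again, as EGFR-low and EGFR-high cells were compared under DMSO. MYL9, CALD1, ACTA2 and CNN2 were higher in EGFR-low cells, and TPM1, TAGLN and TPM4 were lower. These were 7 of the 8 members tested, in a comparison in which 51.8% of all 12236 genes were called (31.1% higher and 20.7% lower). MYL9 and ACTA2 passed the filter only through EGFR-low libraries and TAGLN only through EGFR-high libraries, each through the population in which it is high. The count of called members is therefore no support here either. The same 7 members were called with both libraries between the populations left out, when 49.5% of all genes were. The median gene was 0.12 higher in EGFR-low cells on the log2 scale, which median-of-ratios scaling lowered by 0.103 (and by 0.145 under vorinostat); relative to this median the changes of CNN2, ACTA2 and CALD1 were 0.52, 0.60 and 0.65. With that scaling these 3 genes kept their direction but not their calls under DMSO (adjusted p = 0.0640 to 0.119 by limma), nor did ACTA2 and CALD1 under vorinostat (0.0579 and 0.0545).

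MYL9 was at 6.33, 13.9 and 11.4 FPKM in EGFR-low DMSO libraries and at 0.734, 0.434 and 5.67 FPKM in EGFR-high DMSO libraries. The groups did not overlap, although replicate 3 of EGFR-high, which stood between the populations, came close to replicate 1 of EGFR-low, which did so too. The log2 fold change was 2.12 ± 0.49 (adjusted p = 0.00399, limma), and 3.11 without these 2 libraries. Under vorinostat MYL9 was at 4.92, 10.3 and 9.61 FPKM in EGFR-low and at 0.462, 0.403 and 0.420 FPKM in EGFR-high cells, a log2 fold change of 2.64 ± 0.49 (adjusted p = 0.000738). MYL9 was called without each library in turn under both treatments.

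TPM1 was at 62.7, 45.7 and 46.7 FPKM in EGFR-low DMSO and at 216, 160 and 132 FPKM in EGFR-high DMSO libraries. With vorinostat it was at 36.9, 40.1 and 40.1 FPKM and at 239, 192 and 186 FPKM. EGFR-low libraries were below EGFR-high libraries throughout, by -1.68 ± 0.18 under DMSO (adjusted p = 0.000327, limma) and -2.36 ± 0.18 under vorinostat (adjusted p = 3.82e-05) on the log2 scale, and these calls held without each library. The DMSO difference was -1.98 without the 2 libraries between the populations. The share of TPM1 in the tropomyosin FPKM was 10.2 ± 1.84% in EGFR-low and 24.8 ± 4.66% in EGFR-high DMSO cells, and that of TPM3 was 49.6 ± 2.18% against 30.2 ± 4.77%.

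TAGLN and TPM4 were lower in EGFR-low cells here, opposite to the untreated experiment. TAGLN was at 0.714, 0.563 and 0.518 FPKM in EGFR-low DMSO and at 2.28, 1.71 and 1.20 FPKM in EGFR-high DMSO libraries, without overlap (log2 fold change -0.76 ± 0.20, adjusted p = 0.00753, limma, and -0.95 without the libraries between the populations). Under vorinostat the values were 1.17, 0.440 and 0.732 FPKM against 1.21, 2.00 and 1.30 FPKM (-0.50 ± 0.20, adjusted p = 0.0463), a call that was lost without replicate 2 or 3 of either population (adjusted p = 0.0594 to 0.184). TPM4 was at 206, 214 and 177 FPKM in EGFR-low DMSO and at 311, 313 and 267 FPKM in EGFR-high DMSO libraries (-0.58 ± 0.17, adjusted p = 0.0156), and the call was lost without EGFR-high replicates 1 or 2 or EGFR-low replicate 3 (adjusted p = 0.0504 to 0.0658). Without both libraries between the populations it was -0.68 (adjusted p = 0.0298). Under vorinostat TPM4 was lower in EGFR-low cells by -0.74 ± 0.17 (adjusted p = 0.00323), at 163 to 203 against 243 to 403 FPKM.

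CALD1 was at 54.0, 77.4 and 68.6 FPKM in EGFR-low DMSO and at 38.4, 36.0 and 40.5 FPKM in EGFR-high DMSO libraries. The log2 fold change was 0.77 ± 0.24 (adjusted p = 0.0188, limma) and 0.84 ± 0.24 under vorinostat (adjusted p = 0.0104), where the groups overlapped through EGFR-high replicate 1 at 61.999 FPKM. The DMSO call was lost without EGFR-high replicate 2 or EGFR-low replicates 2 or 3 (adjusted p = 0.0563 to 0.0753), and the change was 0.95 without both libraries between the populations (adjusted p = 0.0238). CNN2 was at 111, 150 and 133 FPKM against 89.0, 72.5 and 89.1 FPKM under DMSO (0.64 ± 0.23, adjusted p = 0.0372) and was kept only without EGFR-low replicate 1 (adjusted p = 0.0538 to 0.127 without any other library). Without both libraries between the populations its change was 0.81 (adjusted p = 0.0458). It had no call under vorinostat (0.47 ± 0.23, adjusted p = 0.104), where EGFR-high replicate 1 stood at 146 FPKM and the other 2 libraries at 72.4 and 72.5 FPKM, and was called without that library (0.80, adjusted p = 0.000693).

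ACTA2 reached 1.75, 3.41 and 2.69 FPKM in EGFR-low DMSO libraries. EGFR-high DMSO libraries held 0.425, 1.04 and 2.46 FPKM, the last again in replicate 3, so that the groups overlapped (log2 fold change 0.72 ± 0.28, adjusted p = 0.0464, limma). The change was 1.24 without the 2 libraries between the populations (adjusted p = 0.000607), and the call was lost without EGFR-high replicates 1 or 2 or EGFR-low replicates 2 or 3 (adjusted p = 0.112 to 0.198). Under vorinostat ACTA2 was at 1.73 to 2.06 FPKM in EGFR-low and 0.527 to 0.840 in EGFR-high cells (0.74 ± 0.28, adjusted p = 0.0370), a call lost without any of the 6 libraries (adjusted p = 0.0544 to 0.104). TPM2 was called in neither treatment, except under vorinostat when EGFR-low replicate 1 was left out (0.60, adjusted p = 0.0353). In all, 6 of 8 members were called under vorinostat, where 59% of all genes were (36.2% higher and 22.8% lower). The DMSO libraries between the populations enter that comparison only through the shared spread, and the same 6 members were called without them. MYL9, ACTA2 and TAGLN passed the filter as described for DMSO, so that the count under vorinostat is no support either. ACTG2 and CNN1 were not tested in this experiment, since no library exceeded 0.265 FPKM for ACTG2 or 0.228 FPKM for CNN1.

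**Figure D3:**
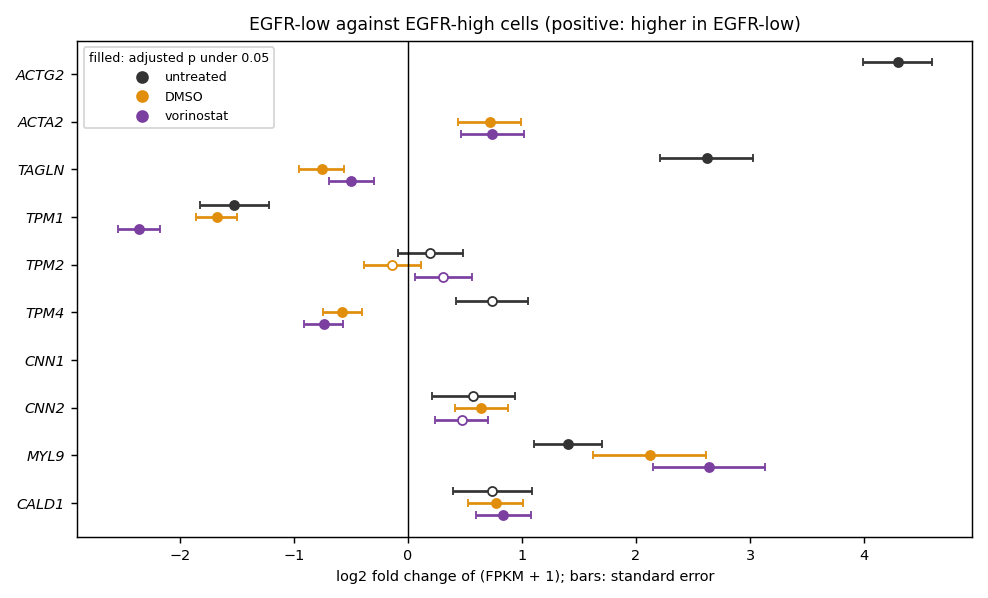
Log2 fold change of (FPKM + 1) between EGFR-low and EGFR-high cells (x axis, positive when higher in EGFR-low) for each gene (y axis) in untreated (black), DMSO-treated (orange) and vorinostat-treated cells (purple), with bars for the standard error and filled points for an adjusted p under 0.05. MYL9 lies to the right and TPM1 to the left in all 3 settings, TAGLN and TPM4 change sides between the experiments, and genes without a point were not tested.

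Side by side, the populations of the same name had different smooth muscle profiles in the experiments, which differed in time in culture and in DMSO and were not tested against each other. The labels do not say whether the same sorted cells entered both experiments. ACTG2 averaged 28.3 FPKM in untreated EGFR-low cells and 0.0440 FPKM in EGFR-low cells under DMSO. TAGLN averaged 13.1 and 0.598 FPKM, whereas MYL9 averaged 2.90 and 10.6 FPKM and ACTA2 0.342 and 2.62 FPKM. EGFR-high cells held 0.438 and 0.162 FPKM of ACTG2 and 1.14 and 1.73 FPKM of TAGLN. Time in culture, DMSO and a difference between the sorted cells used cannot be told apart. In bulk RNA, fewer cells of a kind and less RNA per cell cannot be told apart either.

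Vorinostat was compared with DMSO to see whether inhibition of histone deacetylases moved these genes. By limma 0 of the 8 members were called in EGFR-low cells, 0 in their EGFR-high counterparts and 0 for the difference of the effect between the populations, and 0% of all genes were called in each of these comparisons. The numbers of members with an unadjusted p under 0.05 were 0, 0 and 1. That 1 was TPM1, which averaged 51.7 FPKM under DMSO and 39.0 FPKM under vorinostat in EGFR-low cells and 169 and 206 FPKM in EGFR-high cells. Its difference of effect was -0.68 ± 0.26 (unadjusted p = 0.0217, adjusted p = 0.999) and -0.37 without the 2 libraries between the populations. TPM1 did not overlap between treatments in EGFR-low cells (-0.38 ± 0.18, adjusted p = 1). TPM2 in EGFR-high cells lay below the DMSO libraries, at 2.81, 5.07 and 4.80 FPKM against 6.41, 6.40 and 6.38 FPKM, with a log2 fold change of -0.53 ± 0.25 and an adjusted p of 0.940. MYL9 in EGFR-high cells differed by -0.84 ± 0.49 (adjusted p = 0.940), and by -0.14 without the libraries between the populations. The other members differed by at most 0.33 on the log2 scale in either population. Among them, ACTA2 in EGFR-high cells went from -0.33 to 0.01 without the libraries between the populations. Standard errors of the members in these comparisons were 0.17 to 0.49.

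**Figure D4:**
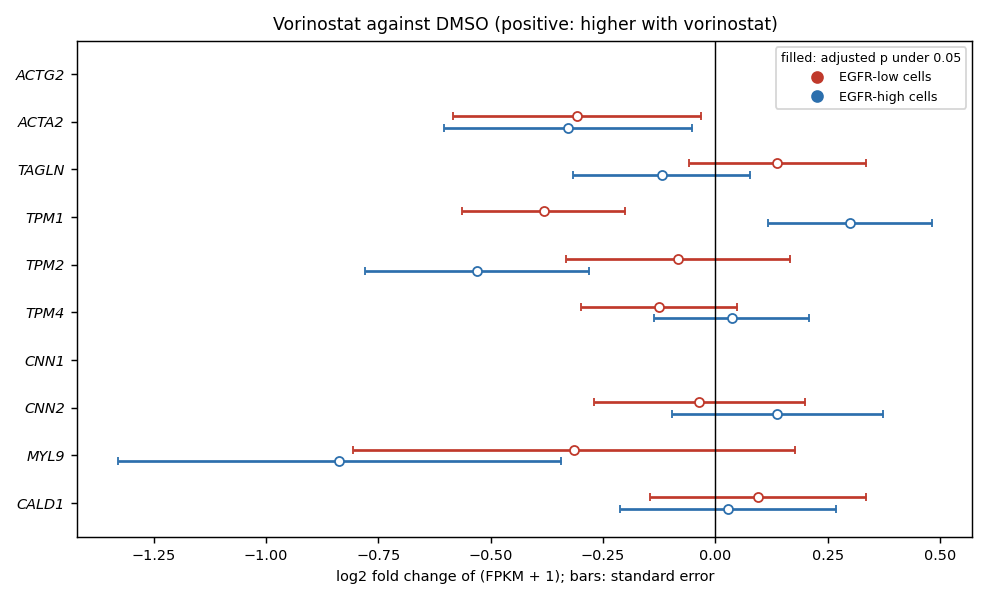
Log2 fold change of (FPKM + 1) between vorinostat and DMSO (x axis, positive when higher with vorinostat) for each gene (y axis) in EGFR-low (red) and EGFR-high cells (blue), with bars for the standard error. All points are open, since 0 members had an adjusted p under 0.05, and the point farthest from 0 is MYL9 in EGFR-high cells at -0.84.

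The wider contractile machinery was read from a list of 34 partners. In the untreated experiment 0 of the 24 partners tested were called by limma for EGFR-low against EGFR-high cells and 0 against parental cells, with 1 and 6 at an unadjusted p under 0.05. The share of all genes at that unadjusted level was not counted, so these numbers are no support. The median log2 fold change of the partners was 0.22 and 0.66, next to -0.03 and 0.06 for all genes. For EGFR-high against parental cells it was 0.37, next to 0.07 for all genes. Under DMSO 5 of 26 were higher and 7 lower in EGFR-low cells, with a median of -0.15 next to 0.12 for all genes, and under vorinostat 7 were higher and 7 lower. With 51.8% and 59% of all genes called in these comparisons, the partners were called no more often than genes at large. Without the libraries between the populations 5 were higher and 6 lower under DMSO, as MYL6B lost its call (adjusted p = 0.202, limma), and 7 and 7 under vorinostat.

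MYLK, the kinase that phosphorylates MYL9, and MYH10, a non-muscle myosin heavy chain, rose with MYL9 under DMSO. MYLK was at 2.34, 7.50 and 5.96 FPKM in EGFR-low and at 0.135, 0.185 and 3.52 FPKM in EGFR-high DMSO libraries (1.67 ± 0.52, adjusted p = 0.0187, limma), again with replicate 3 of EGFR-high apart from the others, and the change was 2.73 without the 2 libraries between the populations. MYH10 was at 9.26, 13.5 and 13.0 FPKM against 0.521, 0.278 and 3.10 FPKM (2.68 ± 0.36, adjusted p = 0.000327), a change of 3.36 without those libraries. In untreated EGFR-low cells, in contrast, MYLK was at 0.0377 to 0.0673 FPKM and MYH10 at 0.00787 to 0.0357 FPKM. High ACTG2 was thus found in EGFR-low libraries of the untreated experiment, and the higher MYLK in those of the vorinostat experiment. This contrast lies between the experiments and was not tested. FLNA and TLN1, large linkers of actin to membrane and integrin, and TAGLN2 were higher in EGFR-low cells as well (0.94, 0.83 and 0.98). The paralog CNN3 was lower, as was the myosin heavy chain MYH14, by -1.54 ± 0.20 and -1.29 ± 0.19 on the log2 scale. With CNN3 low, CNN2 made up 76.1 ± 3.31% of calponin FPKM in EGFR-low DMSO cells and 40.9 ± 6.96% in EGFR-high DMSO cells. The remaining calls were lower for MYL12B, MYL6B, PPP1R12B, PPP1R14B and SMTN, by -0.42 to -0.59. Under vorinostat the calls were higher for ACTG1, TAGLN2, TPM3, MYH10, MYLK, FLNA and TLN1 and lower for CNN3, MYH9, MYH14, MYL6B, MYL12B, PPP1R12B and ACTN1.

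SRF and its cofactors of the myocardin family were read beside these. MYOCD, the smooth muscle cofactor, averaged at most 0.00146 FPKM in any group. SRF averaged 10.1 FPKM in untreated EGFR-low and 10.3 FPKM in EGFR-high cells (log2 fold change 0.01 ± 0.33, adjusted p = 0.994, limma), and was not called between the populations of the vorinostat experiment. The cofactors MKL1 and MKL2 averaged 7.03 and 14.7 FPKM in untreated EGFR-low cells and 7.26 and 11.6 FPKM in EGFR-high cells, with overlap. Under DMSO MKL2 averaged 15.6 FPKM in EGFR-low and 9.80 FPKM in EGFR-high cells, a difference of 0.61 ± 0.25 that did not pass (adjusted p = 0.0542) and did pass without the 2 libraries between the populations (1.01, adjusted p = 0.00641). Under vorinostat MKL2 was higher (0.76 ± 0.25, adjusted p = 0.0190) and MKL1 lower in EGFR-low cells (-0.35 ± 0.14, adjusted p = 0.04999), and without those libraries MKL1 did not pass (adjusted p = 0.0675).

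Likeness of pattern was measured as the root mean square difference, over the 7 group means of log2(FPKM + 1), after subtraction of the mean of each experiment. Nearest to ACTG2 among 11118 genes was KYNU, at 0.58 with 1.38 for the size of the pattern of ACTG2 itself, followed by TAGLN and TFF1 at 0.58 and 0.60. Nearest to TAGLN were SLC40A1, PKIB and PCDH7 at 0.29, 0.34 and 0.37, with a pattern size of 0.87. TPM1 had closer neighbours, with FGF11 at 0.08, ELF5 at 0.09 and ICAM1 at 0.10, with a pattern size of 0.88.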

How the data were processed

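The authors sequenced polyadenylated RNA, and the submitters' processing notes name STAR 2.5.1b, Cufflinks 2.2.1, DESeq2 1.10.1 and the build hg19. The deposited values were read as FPKM made by the authors with Cufflinks, a unit inferred from sums of 467897 to 592942 per library, although the naming calls them gene counts. Fragment numbers are unknown, so no counting interval is given. No reads were used. Mitochondrial genes held 6.58 to 24.2% of the FPKM of a library, and their ranges overlapped between the groups compared.

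Log2(FPKM + 1) of 11305 (untreated) and 12236 (vorinostat) genes entered limma 3.58.1 (R 4.3.3; linear model and moderated eBayes test with an intensity trend), with a mean per group, all groups of an experiment in the fit and Benjamini-Hochberg adjustment over all genes tested. On simulated data, 74 of 100 genes changed by 2 log2 units were called in the untreated design with 6 false calls, and 95 of 100 with 9 in the vorinostat design. For 1 log2 unit these were 25 and 74. Simulated noise was independent between libraries, and only the changed genes differed between groups. The deposited libraries deviated together in part, so these numbers are not rates for them. The 10 genes and all lists were chosen with earlier results of these data known. The text names all 10 genes and the contractile partners that were called. Counts over a further list of regulators are not reported here, and SRF, MKL1, MKL2 and MYOCD were named from it after their values were seen. Likeness was computed for ACTG2, TAGLN and TPM1.

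Alternatives were pseudocounts of 0.1 and 5, no filter, a filter of 5 FPKM in 3 libraries, quantile normalization, scaling by median of ratios, no trend, a fit of the compared groups alone, the replicate number as a block, GC and length correction of each library's values (both known for 10718 and 11608 of the genes tested), each library left out, and, chosen after seeing the data, both libraries between the populations left out and the ratio of ACTG2 means without each library. The study's methods describe replicates as separate experiments run at different times. Deviations of same-numbered libraries correlated at 0.343, 0.730 and 0.689 for the untreated sorted populations. They correlated at 0.353, 0.351 and 0.163 under vorinostat and at 0.267, 0.302 and 0.329 between treatments in EGFR-low cells. The numbers were read as pairs in these comparisons, but the main fits used no pairing. Standard errors and adjusted p-values by limma are therefore unpaired, except where the replicate block is named. Other comparisons had a pair under 0.1. Sequences came from RefSeq windows, and figures were drawn with matplotlib 3.10.9 in Python 3.11.15.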

Additional observations from a re-analysis of the deposited data

Results flagged for a closer look

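TAGLN and TPM4 separated EGFR-low from EGFR-high cells without overlap in both experiments, but in opposite directions. The share of all genes that did so was not counted, and 51.8% of all genes tested were called under DMSO. For TAGLN the log2 fold change was 2.62 in untreated cells and -0.76 under DMSO, and for TPM4 it was 0.73 and -0.58. The untreated change of TPM4 did not pass the threshold (adjusted p = 0.334 by limma), and its DMSO call was lost when EGFR-high replicates 1 or 2 or EGFR-low replicate 3 was left out. The difference between the experiments was not tested, because the tables were fitted separately and the experiments differ in time in culture and treatment.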

How the results depend on the processing

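Among refits of the changes given singly, 591 kept their direction and their side of the threshold, 63 lost a call, 13 gained a call and 2 changed sign. Both changes of sign were those of MYL9 in the difference of the vorinostat effect, 0.52 in all libraries, -0.47 with both libraries between the populations left out and -0.17 to 0.94 with each library left out. Of 483 refits of the 26 smaller changes, none of which was called, 44 changed sign. ACTG2, TAGLN and TPM1 in untreated EGFR-low against EGFR-high cells kept their calls under all 11 alternatives with all libraries, as did MYL9, TPM1 and TPM4 between the populations in the vorinostat experiment. MYL9 in untreated EGFR-low against EGFR-high cells missed the threshold with no filter (adjusted p = 0.0505 by limma), and against parental cells in a fit of the compared groups alone (adjusted p = 0.0515).

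The number of members called in untreated EGFR-low against EGFR-high cells was 4, and 7 with the GC and length correction together with the replicate block, where 21.1% of all genes were called. It was 2 to 3 without each library in turn. Against parental cells it was 3, 5 with that correction (4.34% of all genes called) and 6 with the block as well (19.5%). Under DMSO it was 7, 4 with median-of-ratios scaling (52.4% of all genes called) and 3 to 7 without each library. The replicate block alone gave 5 in the untreated comparison of the sorted populations, adding CALD1, with 8.54% of all genes called, and 4 against parental cells, adding TPM1 (adjusted p = 0.0162), with 4.64%, although the numbers did not pair the libraries there. It changed no other call. The cause of these shifts was not tested. Depth per library is not known, and genes under 1 FPKM, such as ACTG2 in the vorinostat experiment, rest on few fragments.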
